A study of Rattus norvegicus with 12 samples.

Results

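The genes described here are 36 genes of the response to amino acid shortage that the transcription factor ATF4 directs, measured in metatarsal bones of fetal rats. They were chosen by name for their known roles, as 17 targets or partners of ATF4, 7 enzymes of serine and folate metabolism and 12 cytosolic aminoacyl-tRNA synthetases, out of 30045 gene symbols counted. Earlier results of these data were known when they were chosen, so shares of members called are descriptive and no independent test. Of the 36, 35 had at least 60 counts in at least 2 libraries and were tested among 12602 genes. The exception was Aldh18a1, an enzyme of proline synthesis, whose mean level was 0.823 to 0.923 CPM (a gene's count scaled to a common library total) in the 4 conditions.

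The question behind the study was whether lithium counteracts the growth failure that glucocorticoids cause in bone. Hind-paw metatarsals of Sprague Dawley fetuses at embryonic day 19 were kept in DMEM/F12-based medium for 72 h in 1 of 4 conditions, all of them with the same base medium, which supplied free amino acids. The control received the ethanol vehicle, the second group the synthetic glucocorticoid dexamethasone at 1 µM, the third LiCl at 10 mM with the vehicle, and the fourth both drugs (dexamethasone + LiCl). Each condition had 3 libraries, each from a pool of about 20 whole bones, so that n = 3 pools and every SD and test refers to the spread between pools of mixed cell types. By the paper's account the pools came from 3 experiments and 3 rats. Pools of different conditions can therefore share a source, which the main fit does not take into account. In such bulk RNA, fewer cells of a type and less RNA per cell cannot be told apart. Total counts were 10761816 to 21953446 in control, 9263078 to 11685463 with dexamethasone, 13866588 to 20644093 with LiCl and 9055581 to 17872189 with both. Among the tested members the lowest count in any library was 19, for Atf3, and the next lowest 101, for Trib3. Chondrocyte markers (Col2a1, Acan, Sox9, Col9a1, Matn1) summed to 42093 to 74375 CPM over the 12 libraries.

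ATF4 is controlled mainly at the level of translation. When kinases that sense amino acid shortage, unfolded protein or other stress phosphorylate the initiation factor eIF2, general protein synthesis drops while Atf4 mRNA is translated more, so the level of Atf4 mRNA is a poor guide to the protein. ATF4 then switches on genes that import and make amino acids, charge tRNAs and, under prolonged stress, limit growth or promote cell death. In cartilage, which secretes large amounts of collagen, ATF4 is known as a regulator of chondrocyte proliferation and differentiation.

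Many targets of ATF4 carry a C/EBP-ATF response element, whose core was searched for here as TGATGNAA on either strand (TTNCATCA when read on the other strand), in RefSeq windows of 300 bases, 250 before and 50 after the annotated start, on build GRCr8. A match describes these letters only and shows no binding. A window without a match does not show that the gene lacks such an element, which may lie outside the window or differ in letters. Of all 33469 windows 3.98% held the letters, and of 10002 windows of tested genes matched by symbol 1.79%. Of the 36 members 32 had a window, and 11 of these (34.4%) held the letters. By class these were 4 of 15 ATF4 targets (Trib3, Chac1, Pycr1 and Slc7a1), 0 of 6 serine and folate enzymes, and 7 of 11 synthetases (Aars, Cars, Iars, Mars, Nars, Tars and Yars). Atf3, Aldh18a1, Mthfd1 and Gars are named only. The 250 bases before the start are shown for Trib3 (chr3:161275534-161275783, minus strand) and Chac1 (chr3:126795881-126796130, plus strand), the members that held the letters and passed a comparison with condition as the only term, written 5′ to 3′ along the gene with the match in capitals.
Trib3: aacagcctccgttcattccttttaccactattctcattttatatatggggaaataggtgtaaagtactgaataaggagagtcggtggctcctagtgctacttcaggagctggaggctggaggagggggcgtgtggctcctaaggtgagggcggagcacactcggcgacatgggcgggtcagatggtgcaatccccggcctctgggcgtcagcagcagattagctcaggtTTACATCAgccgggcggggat
Chac1: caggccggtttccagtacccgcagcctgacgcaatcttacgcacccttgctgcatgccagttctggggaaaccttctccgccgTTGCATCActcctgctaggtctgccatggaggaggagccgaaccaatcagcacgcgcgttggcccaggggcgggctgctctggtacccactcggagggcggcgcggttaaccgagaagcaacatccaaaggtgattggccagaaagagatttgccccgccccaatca
The match began 21 bases before the start in Trib3 and 167 before it in Chac1. The next stretches of 30 bases belong to other members that held the letters. They were chosen after the values had been seen, to show the bases around matches in both classes, whose 7 fixed letters are alike because the search required them. They lie at chr10:106420925-106420954 (minus strand, Pycr1), chr12:11664447-11664476 (plus, Slc7a1), chr17:15193658-15193687 (minus, Iars), chr7:65023752-65023781 (minus, Mars) and chr2:62114811-62114840 (minus, Tars).
Pycr1: ggtcctgtgtaTGATGCAAtgtacaaggct
Slc7a1: cggcgcgcggcTGATGAAAccggctcggat
Iars: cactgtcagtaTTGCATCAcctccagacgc
Mars: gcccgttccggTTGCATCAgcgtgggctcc
Tars: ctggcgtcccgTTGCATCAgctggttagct
The synthetases Iars, Mars and Tars had TTGCATCA, as did Chac1, and Trib3 had TTACATCA. The 8 remaining cytosolic synthetases, which are no members, had 6 windows, of which 0 held the letters.

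LiCl lowered part of this programme. Against control, 6 of 35 members (17.1%) fell at an adjusted p under 0.05, where 5.9% of all tested genes fell, and 0 members rose, where 4.71% of all genes did. The 6 were Trib3, Ddit3, Asns, Mthfd2, Psat1 and Phgdh. At an unadjusted p under 0.05 there were 13 lower and 1 higher, a rule under which all genes were not counted, here or below. DESeq2 called 8 lower and 0 higher, where it called 877 and 696 of all 12602 genes. The fitted difference was below 0 for 29 of the 35, with a median log2 fold change of -0.22 against 0.00 over all tested genes. Once the replicate number was a term, 10 members fell and 1 rose, where 1038 and 936 of all 12602 genes did. Without LiCl replicate 3 the number that fell was 3, and the count over all genes also dropped, from 744 to 396 lower. Without control replicate 2 or LiCl replicate 1 there was 1 member that rose, Ddit4, where 473 and 378 of all genes rose.

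Added to dexamethasone, LiCl had 4 of 35 members (11.4%) lower than dexamethasone alone (Asns, Mthfd2, Trib3 and Wars), against 4.78% of all genes, and 0 higher, against 3.82% of all genes. Unadjusted, 11 were lower and 0 higher, and DESeq2 called 5 lower and 0 higher (752 and 594 of all 12602 genes). The median log2 fold change was -0.15. This count of lower members moved with single libraries, as did the count over all genes, 603 lower with all libraries. It was 8 without dexamethasone replicate 2 (643 of all genes) and 2 without dexamethasone replicate 1 (342). It was 1 without dexamethasone replicate 3 (336), dexamethasone + LiCl replicate 1 (320) or dexamethasone + LiCl replicate 2 (363). It was also 1 when these groups were fitted alone (516 of all genes). Mthfd2 was the member that passed in each of these fits.

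Dexamethasone alone changed few members. Against control 2 of 35 (5.71%) rose, Ddit4 and Slc38a2, a share near the 5.45% of all genes, and 0 fell, against 5.49% of all genes. Unadjusted, 3 were higher and 1 lower, and DESeq2 called 2 and 0 (803 and 781 of all 12602 genes). Without control replicate 1 or dexamethasone replicate 3, 1 member fell (Pycr1 and Chac1, respectively), where 558 and 607 of all genes fell. The same comparison in the presence of LiCl, dexamethasone + LiCl against LiCl, gave 2 members higher, again Ddit4 and Slc38a2, against 3.79% of all genes, and 0 lower, against 3.09%. Unadjusted there were 3 and 0, and DESeq2 called 2 and 0 (538 and 475 of all 12602 genes). Of these 2 members, 1 was left without LiCl replicate 1, dexamethasone + LiCl replicate 2 or dexamethasone + LiCl replicate 3. Over all genes 363, 366 and 376 were higher in these fits, against 477 with all libraries. With both drugs against control, Ddit4 and Slc38a2 were higher (10.8% of all genes rose) and 7 members were lower (20%, against 11.8% of all genes). These 7 were Trib3, Chac1, Ddit3, Asns, Mthfd2, Psat1 and Wars. All these comparisons share groups of libraries, so their members are given side by side and not as independent counts.

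Among the calls, a difference of at least 2-fold was reached by Ddit4 and Trib3 only. Ddit4 passed with it in dexamethasone against control (1.58% of all genes rose and 1.26% fell by that rule) and in both drugs against control (2.27% and 2.1%). Trib3 passed with it in LiCl against control (0.809% rose, 0.77% fell), in dexamethasone + LiCl against dexamethasone (0.77% rose, 0.595% fell) and in both drugs against control. In dexamethasone + LiCl against LiCl 0 members did (1.35% rose, 0.659% fell), Ddit4 reaching 1.88-fold.

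**Figure D1:**
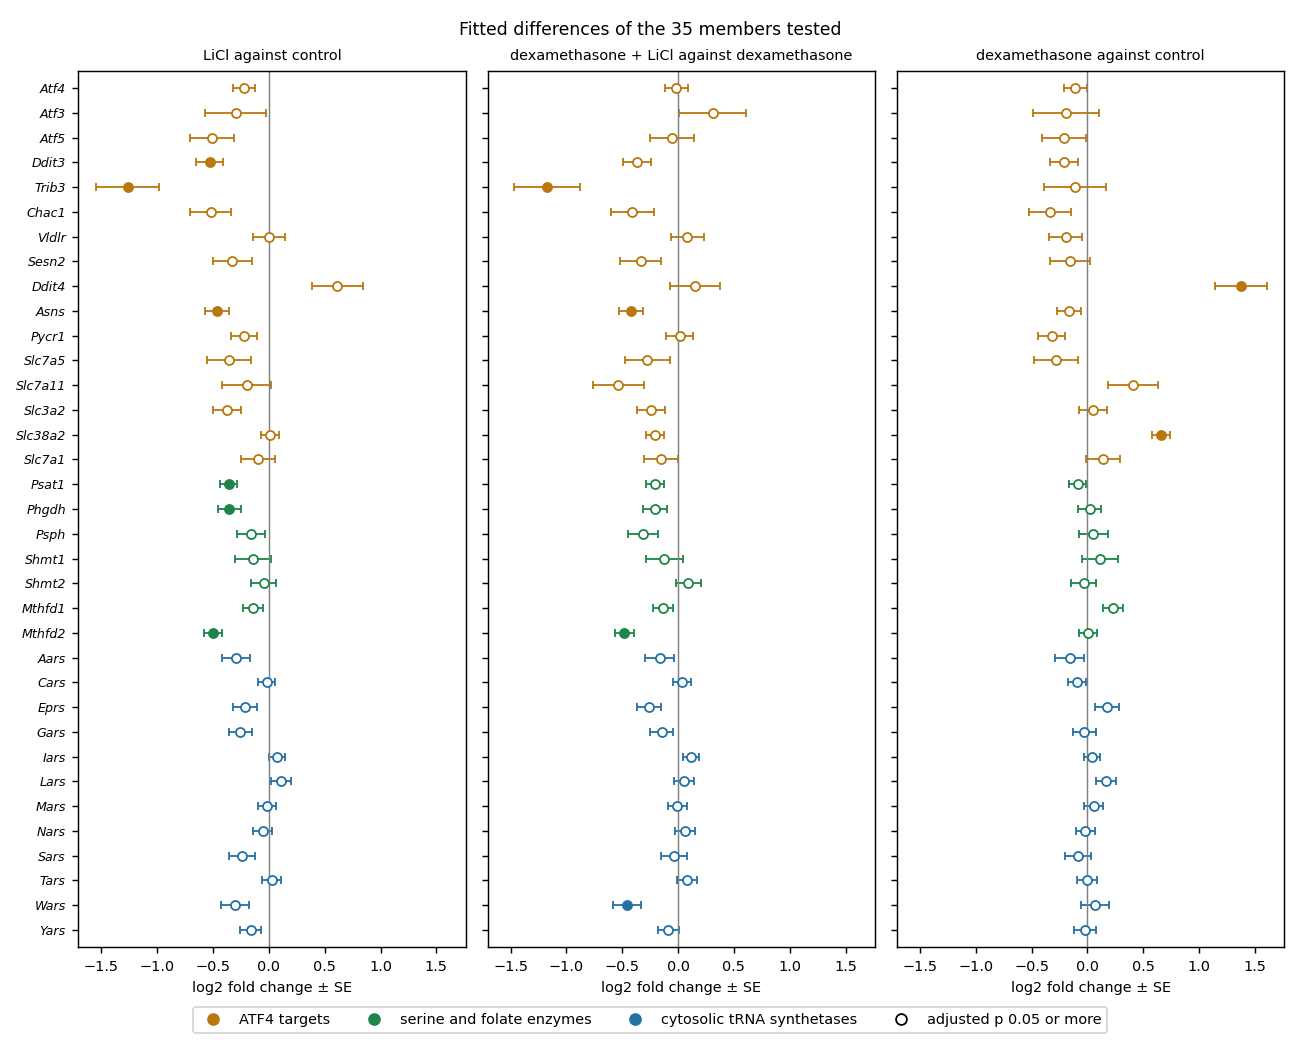
Fitted log2 fold changes with SE (x axis) of the 35 members tested (y axis) in 3 comparisons, from edgeR over 12 libraries, with filled points at an adjusted p under 0.05. With LiCl against control 29 of the 35 points lie left of 0, with Trib3 farthest left at -1.26, whereas with dexamethasone Ddit4 (1.37) and Slc38a2 (0.66) stand to the right.

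Among the transcription factors, Atf4 itself did not pass in any comparison with condition as the only term. Its levels were 374, 450 and 398 CPM in control, 373, 326 and 436 with dexamethasone, 351, 342 and 354 with LiCl, and 361, 359 and 400 with both. The LiCl pools lay below every control pool and the other groups overlapped with control. The log2 fold change of LiCl against control was -0.22 (SE 0.10, adjusted p = 0.183). Ddit3, which encodes CHOP and takes part in stress-induced cell death, had 35.2, 41.4 and 38.9 CPM in control, 33.5, 28.5 and 37.8 with dexamethasone, 23.5, 30.1 and 25.9 with LiCl, and 26.6, 22.1 and 28.1 with both. Every pool that received LiCl was below every control pool. Ddit3 fell with LiCl (log2 fold change -0.53, SE 0.12, adjusted p = 0.0118) and with both drugs (-0.58, SE 0.13, adjusted p = 0.00348). The call with LiCl was lost without LiCl replicate 1 (adjusted p = 0.0602) or LiCl replicate 3 (0.0559). Against dexamethasone alone its value was -0.37 (SE 0.13, adjusted p = 0.0933).

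Atf5, a related factor and itself a target of the pathway, had 208, 302 and 291 CPM in control, 212, 207 and 273 with dexamethasone, 135, 226 and 201 with LiCl, and 163, 242 and 261 with both. Replicate 1 was low in 3 of the 4 conditions, and the groups overlapped. The LiCl value of -0.51 (SE 0.20) did not pass (adjusted p = 0.119), but with the replicate number as a term it did (-0.52, adjusted p = 0.00643). Atf3, an early stress factor, was near the lower end of what was tested, with 2.87, 3.42 and 2.51 CPM in control, 2.16, 1.59 and 4.02 with dexamethasone, 2.63, 2.35 and 2.12 with LiCl, and 2.39, 3.36 and 3.49 with both. All pools of the other conditions lay within the range of the dexamethasone pools. No comparison of conditions passed for Atf3, at counts of 19 to 64 per library and with SEs of 0.27 to 0.30. Small differences could not be told from 0 with these SEs.

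Of the stress targets, Trib3 had the largest falls. It encodes a pseudokinase that restrains the kinase AKT and feeds back on ATF4. Its levels were 38.2, 54.2 and 42.8 CPM in control, 35.9, 25.4 and 64.1 with dexamethasone, 16.9, 21.1 and 17.7 with LiCl, and 10.99, 17.1 and 25.6 with both. All pools with LiCl were below all control pools, while the dexamethasone pools spread widely and the lowest of them overlapped with the highest pool of both drugs. Means were 45.1 ± 8.28 CPM in control and 18.6 ± 2.24 with LiCl (SD, n = 3), a fitted ratio of 0.417 (log2 fold change -1.26, SE 0.28, adjusted p = 0.0101). Against dexamethasone (41.8 ± 20.0 CPM), both drugs (17.9 ± 7.33) gave -1.17 (SE 0.30, adjusted p = 0.0235), and against control -1.28 (SE 0.29, adjusted p = 0.00486). Without LiCl replicate 3 the LiCl call was just lost (adjusted p = 0.0507). The call against dexamethasone was lost without dexamethasone replicate 3 (0.126), without dexamethasone + LiCl replicate 1 (0.0926) or replicate 2 (0.0779), and when only these groups were fitted (0.0618).

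Chac1 encodes an enzyme that degrades glutathione. Its levels were 46.0, 51.6 and 50.9 CPM in control, 38.6, 27.1 and 52.7 with dexamethasone, 30.9, 34.1 and 37.9 with LiCl, and 23.6, 27.5 and 36.3 with both. All pools with LiCl lay below all control pools. Chac1 was lower with both drugs than in control (-0.75, SE 0.19, adjusted p = 0.00936), which was lost without dexamethasone + LiCl replicate 1 (0.0508). With LiCl alone the value was -0.52 (SE 0.18, adjusted p = 0.0816), and it passed with the replicate number as a term (adjusted p = 0.0177) and in DESeq2 (adjusted p = 0.0485).

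Ddit4 was the stress target that rose. Its product REDD1 inhibits the growth-promoting kinase complex mTORC1, and the gene is known to respond to glucocorticoids as well as to ATF4. Its levels were 24.1, 40.7 and 27.7 CPM in control, 69.4, 74.4 and 92.1 with dexamethasone, 29.7, 55.8 and 53.0 with LiCl, and 64.5, 104 and 92.6 with both. Every pool with dexamethasone was above every pool without it. Ddit4 rose 2.59-fold with dexamethasone (log2 fold change 1.37, SE 0.23, adjusted p = 0.000947), 2.87-fold with both drugs against control (1.52, SE 0.23, adjusted p = 0.000208) and 1.88-fold with both against LiCl (0.91, SE 0.23, adjusted p = 0.0206). The last was lost without LiCl replicate 1 (0.0846), dexamethasone + LiCl replicate 2 (0.109) or replicate 3 (0.0725). With LiCl alone it was 0.61 above control (SE 0.23, adjusted p = 0.107), which passed with the replicate number as a term (0.58, adjusted p = 0.0114). Sesn2, another brake on mTORC1, lay at 36.4 to 76.9 CPM. Its value with both drugs against control was -0.49 (SE 0.18, adjusted p = 0.0621), and -0.51 once the replicate number was a term (adjusted p = 0.0298). In DESeq2 it also passed (-0.50, adjusted p = 0.0326). Vldlr, a lipoprotein receptor, lay at 70.5 to 110 CPM with log2 fold changes of -0.19 to 0.08.

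**Figure D2:**
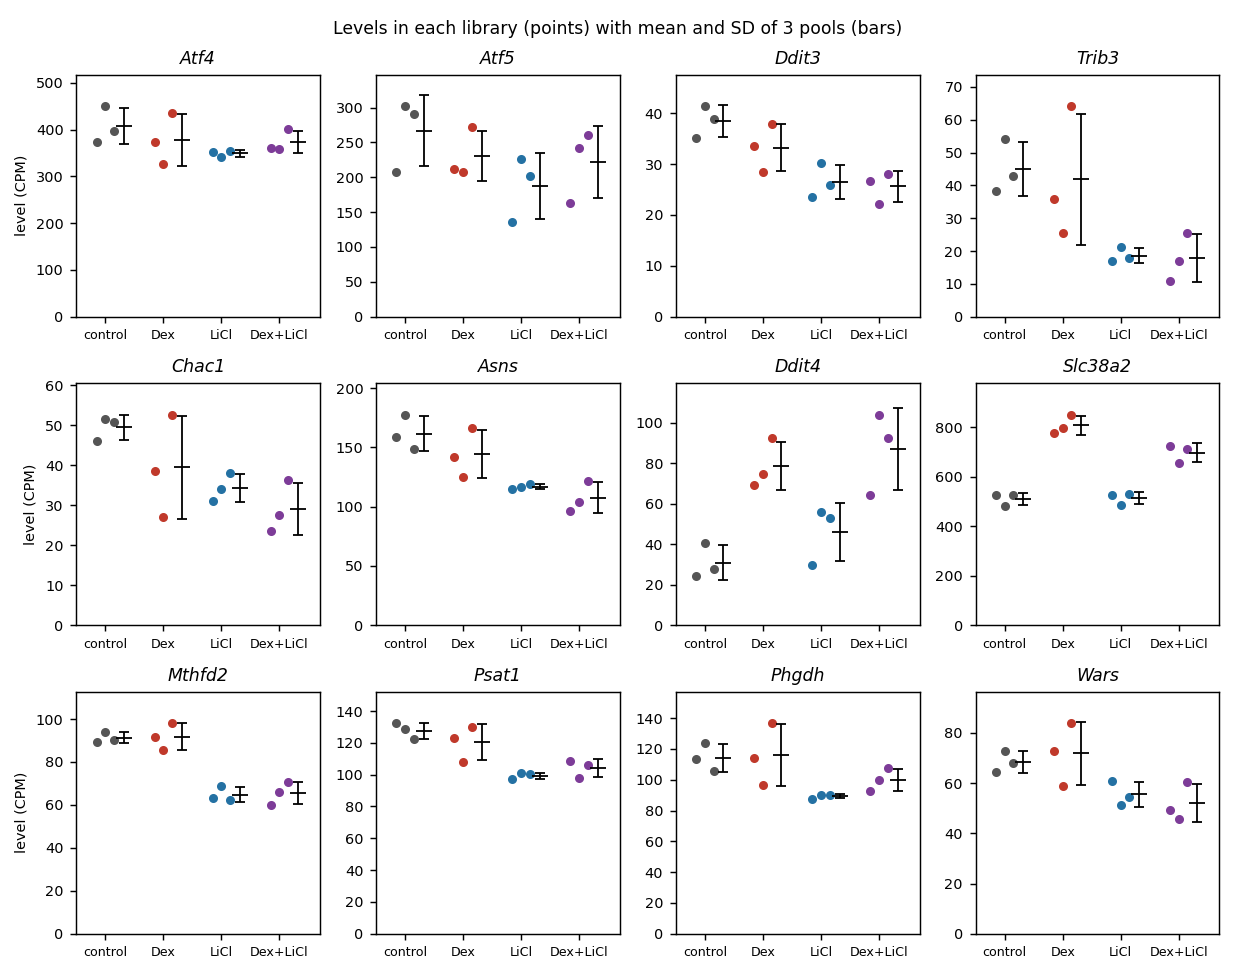
Levels in CPM (y axis, from 0) of 12 members in each library, with points for the 3 pools of each condition and bars for their mean and SD. Ddit4 and Slc38a2 are higher in all pools with dexamethasone, whereas Mthfd2 lies at 60.1 to 70.5 CPM in the 6 pools with LiCl and at 85.6 to 98.1 in the 6 without it.

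The enzymes of asparagine and proline synthesis were represented by Asns and Pycr1. Asns makes asparagine from aspartate and is a classical reporter of the amino acid response. Its levels were 159, 178 and 148 CPM in control, 142, 125 and 166 with dexamethasone, 115, 116 and 119 with LiCl, and 96.6, 104 and 122 with both. All 6 pools with LiCl were below all 6 pools without it. Asns fell with LiCl (-0.47, SE 0.11, adjusted p = 0.0118), with both drugs against control (-0.58, SE 0.11, adjusted p = 0.00108) and with both against dexamethasone (-0.42, SE 0.11, adjusted p = 0.0264). The last was lost without dexamethasone replicate 1 (0.065) or replicate 3 (0.126), without dexamethasone + LiCl replicate 1 (0.116) or replicate 2 (0.0906), and when only these groups were fitted (0.0565). Pycr1, the last enzyme of proline synthesis, lay at 59.9 to 99.8 CPM. With the replicate number as a term it was lower with dexamethasone (-0.31, adjusted p = 0.0287) and with both drugs (-0.31, adjusted p = 0.0177) than in control. Without that term the values were -0.32 (SE 0.12, adjusted p = 0.112) and -0.31 (SE 0.12, adjusted p = 0.0807).

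Of the 5 amino acid transporters, Slc38a2 changed. It encodes SNAT2, a sodium-coupled carrier of small neutral amino acids. Its levels were 524, 483 and 527 CPM in control, 776, 796 and 850 with dexamethasone, 527, 486 and 531 with LiCl, and 724, 654 and 713 with both. The pools with dexamethasone were all above those without it, and the pools of both drugs were all below those of dexamethasone alone. Slc38a2 rose 1.58-fold with dexamethasone (0.66, SE 0.08, adjusted p = 4.46e-05), 1.36-fold with both drugs against control (0.45, SE 0.08, adjusted p = 0.000836) and 1.35-fold with both against LiCl (0.44, SE 0.08, adjusted p = 0.00243). With LiCl alone its difference was 0.01 (SE 0.08, adjusted p = 0.959). Adding LiCl to dexamethasone gave -0.21 (SE 0.08, adjusted p = 0.123), which passed in DESeq2 (-0.21, adjusted p = 0.0388). The interaction of the drugs was -0.22 (SE 0.11, adjusted p = 0.838 in edgeR), Slc38a2 being the member closest to the threshold in that test.

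The other 4 transporters are Slc7a5 and Slc3a2, which form the LAT1 exchanger of large neutral amino acids, Slc7a11, the cystine carrier, and Slc7a1, the carrier of arginine and lysine. None of these passed in the 5 comparisons of conditions when condition was the only term over all 12 libraries. Slc3a2 was -0.37 with LiCl (SE 0.12, adjusted p = 0.0697) and passed with the replicate number as a term (adjusted p = 0.0183) and in DESeq2 (adjusted p = 0.0355). Slc7a5 was -0.56 with both drugs against control (SE 0.20, adjusted p = 0.0563) and passed with the replicate term (-0.59, adjusted p = 0.0163) and in DESeq2 (-0.57, adjusted p = 0.0247). Slc7a11 was -0.54 with both drugs against dexamethasone (SE 0.23, adjusted p = 0.173, and 0.0279 without a count filter), with dexamethasone replicate 3 the highest of its 12 libraries at 34.7 CPM. Slc7a1 differed by -0.16 to 0.14.

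Among the serine and folate enzymes, Mthfd2 is the mitochondrial enzyme that oxidises methylene-tetrahydrofolate and feeds formate to purine synthesis. Its levels were 89.5, 94.2 and 90.4 CPM in control, 91.7, 85.6 and 98.1 with dexamethasone, 63.1, 68.7 and 62.3 with LiCl, and 60.1, 66.0 and 70.5 with both. The 6 pools with LiCl and the 6 without it did not overlap. Mthfd2 fell with LiCl against control (-0.50, SE 0.08, adjusted p = 0.00106) and with both drugs against dexamethasone (-0.48, SE 0.08, adjusted p = 0.0018), to ratios of 0.708 and 0.717, and with both against control (-0.48, SE 0.08, adjusted p = 0.000505). Dexamethasone alone gave 0.01 (SE 0.08, adjusted p = 0.974). These 3 calls held with each library left out in turn and in every other fit listed among the alternatives, apart from the 2-fold minimum.

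Phgdh, Psat1 and Psph encode the 3 steps that make serine from a glycolytic intermediate. Psat1 had 132, 128 and 122 CPM in control, 123, 108 and 130 with dexamethasone, 97.3, 101 and 100 with LiCl, and 108, 97.9 and 106 with both. All pools with LiCl were below all control pools. Psat1 fell with LiCl (-0.36, SE 0.08, adjusted p = 0.00877) and with both drugs against control (-0.29, SE 0.08, adjusted p = 0.0147), the latter lost without control replicate 1 (0.0512) or dexamethasone + LiCl replicate 2 (0.0729). Phgdh had 113, 124 and 106 CPM in control, 114, 96.7 and 137 with dexamethasone, 87.7, 90.4 and 90.0 with LiCl, and 93.0, 99.7 and 107 with both. The LiCl pools were below all others. Its fall with LiCl (-0.35, SE 0.11, adjusted p = 0.0446) was close to the threshold and was lost in 9 of the 12 fits that left out 1 library (adjusted p = 0.0516 to 0.126). Psph, Shmt1, Shmt2 and Mthfd1 did not pass, with values of -0.16, -0.14, -0.05 and -0.14 for LiCl against control, so that all 7 members of the class were fitted below 0.

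Cytosolic tRNA synthetases attach amino acids to their tRNAs. With LiCl 0 of 12 passed (3 at an unadjusted p under 0.05, Aars, Gars and Wars, all below 0, and 0 by DESeq2), their log2 fold changes ran from -0.30 (Wars) to 0.11 (Lars) and the median was -0.11. The medians were -0.31 for the 16 tested ATF4 targets, with 3 lower (18.8%), and -0.16 for the 7 serine and folate enzymes, with 3 lower (42.9%). Of all genes 5.9% were lower. With LiCl added to dexamethasone the 3 medians were -0.02, -0.23 and -0.21. The differences between classes were not tested. Wars, the synthetase for tryptophan, is also known to respond to interferon. With condition as the only term it did not pass with LiCl alone (-0.30, SE 0.12, adjusted p = 0.133). It was the 1 synthetase that passed elsewhere, in comparisons of both drugs. Its levels were 64.4, 72.9 and 68.0 CPM in control, 72.7, 59.0 and 83.9 with dexamethasone, 60.8, 51.2 and 54.5 with LiCl, and 49.5, 45.9 and 60.5 with both. All pools with LiCl were below all control pools, and 1 pool of both drugs exceeded the lowest dexamethasone pool.

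Wars was lower with both drugs than with dexamethasone (-0.46, SE 0.13, adjusted p = 0.0357) and than in control (-0.39, SE 0.12, adjusted p = 0.0357). The call against dexamethasone was lost without dexamethasone replicate 1 (0.0991) or replicate 3 (0.159), LiCl replicate 3 (0.0518), or dexamethasone + LiCl replicate 1 (0.118) or replicate 2 (0.139), and when only these groups were fitted (0.073). The call against control was lost without control replicate 2 (0.0862) or replicate 3 (0.0697), or dexamethasone + LiCl replicate 1 (0.114) or replicate 2 (0.151). Aars, the synthetase for alanine, passed with the replicate number as a term in LiCl against control (-0.29, adjusted p = 0.0463) and in both drugs against control (-0.34, adjusted p = 0.0153), whereas with condition as the only term the values were -0.29 (SE 0.13, adjusted p = 0.161) and -0.33 (SE 0.13, adjusted p = 0.084). The first also passed when only these groups were fitted (0.041), and the second without a count filter (0.0209), without dexamethasone replicate 2 (0.0318) or replicate 3 (0.0492), and without dexamethasone + LiCl replicate 3 (0.0248). The 7 synthetases with the searched letters in their window had values from -0.29 (Aars) to 0.07 with LiCl, among them Yars (-0.16, SE 0.10), Nars (-0.06, SE 0.09) and Iars (0.07, SE 0.07).

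Whether LiCl acted differently with and without dexamethasone was tested as the interaction of the drugs. For 0 members did it pass in either direction (0% of all genes higher and 0.00794% lower, also with the 2-fold minimum), with 0 also at an unadjusted p under 0.05 and 0 by DESeq2. A call with LiCl alone and none with LiCl on top of dexamethasone, as for Ddit3, Psat1 and Phgdh, is therefore not shown to be a difference between them. Interaction values for these 3 were 0.16 (SE 0.18), 0.16 (SE 0.11) and 0.15 (SE 0.15), and for Trib3, Asns and Mthfd2 they were 0.09 (SE 0.41), 0.05 (SE 0.15) and 0.02 (SE 0.11).

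The members also differed between pools of 1 condition. Of the 35 tested, 30 were highest in dexamethasone replicate 3 among the dexamethasone pools and 26 were lowest in dexamethasone replicate 2. With both drugs, 29 were highest in replicate 3 and 26 lowest in replicate 1, and in control 26 were highest in replicate 2 and 25 lowest in replicate 1. With LiCl alone the members were spread more evenly, with at most 17 lowest and 17 highest in 1 pool. These counts describe single libraries and were not tested. The same counts were not made over all tested genes, so nothing particular to the members can be read from them.

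Further genes of the pathway were followed in lists chosen by name, also with earlier results of these data known. Of 20 further ATF4-linked genes 16 were tested, with a median of -0.24 for LiCl. With LiCl 5 fell (31.2%, against 5.9% of all genes) and 0 rose (against 4.71%). The 5, named after their values were seen, were Cebpb (-0.90, SE 0.17, adjusted p = 0.00298), which encodes a dimerisation partner of ATF4, Jdp2 (-0.58), a repressor of the same family, Slc7a3 (-0.63), a carrier of basic amino acids, Eif4ebp1 (-0.44), a repressor of cap-dependent translation, and Aldh1l2 (-0.38), a mitochondrial folate enzyme. With LiCl added to dexamethasone 3 fell (18.8%, against 4.78% of all genes), Cebpb (-0.64), Aldh1l2 (-0.48) and the tRNA exporter Xpot (-0.38), and 0 rose (against 3.82%). Cebpb was higher with dexamethasone than in control (0.71, SE 0.16, adjusted p = 0.00842), as were Stc2 (0.79) and Got1 (0.48), while Jdp2 was lower (-0.59). These were 18.8% higher and 6.25% lower, against 5.45% and 5.49% of all genes.

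Lists around the pathway were followed too. Of the 8 remaining cytosolic synthetases 0 passed in any comparison of conditions, and Dars, the one closest to the threshold, was at 0.21 with both drugs against control (SE 0.08, adjusted p = 0.0861 in edgeR). Of 16 tested mitochondrial synthetases 1 passed, Lars2, higher with both drugs than in control (0.25, SE 0.09, adjusted p = 0.0464), where 10.8% of all genes rose. Of 7 eIF2 kinases and phosphatase subunits 0 passed. Ppp1r15a, the stress-induced subunit that reverses eIF2 phosphorylation, was at -0.35 with LiCl (SE 0.13, adjusted p = 0.113). The amino acid sensor Eif2ak4 was at 0.26 with dexamethasone (SE 0.09, adjusted p = 0.0719). Of all genes 3.79% to 10.8% rose and 3.09% to 11.8% fell in these comparisons of conditions. In lists of 8 and 7 genes, 0 calls therefore do not set the remaining cytosolic synthetases or the eIF2 list apart. Of 16 chaperones and folding factors of the endoplasmic reticulum, 1 rose with LiCl, Edem1 (0.29, SE 0.07, adjusted p = 0.0196), 0 fell, and the median was -0.01. That share of 6.25% was near the 4.71% of all genes that rose. Edem1 also rose with dexamethasone (0.58) and with both drugs against LiCl (0.50). With both drugs against control Edem1 (0.79) and Canx (0.35) rose and Herpud1 (-0.40) and Creld2 (-0.24) fell. Each direction held 12.5% of the list, near the 10.8% and 11.8% of all genes.

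**Figure D3:**
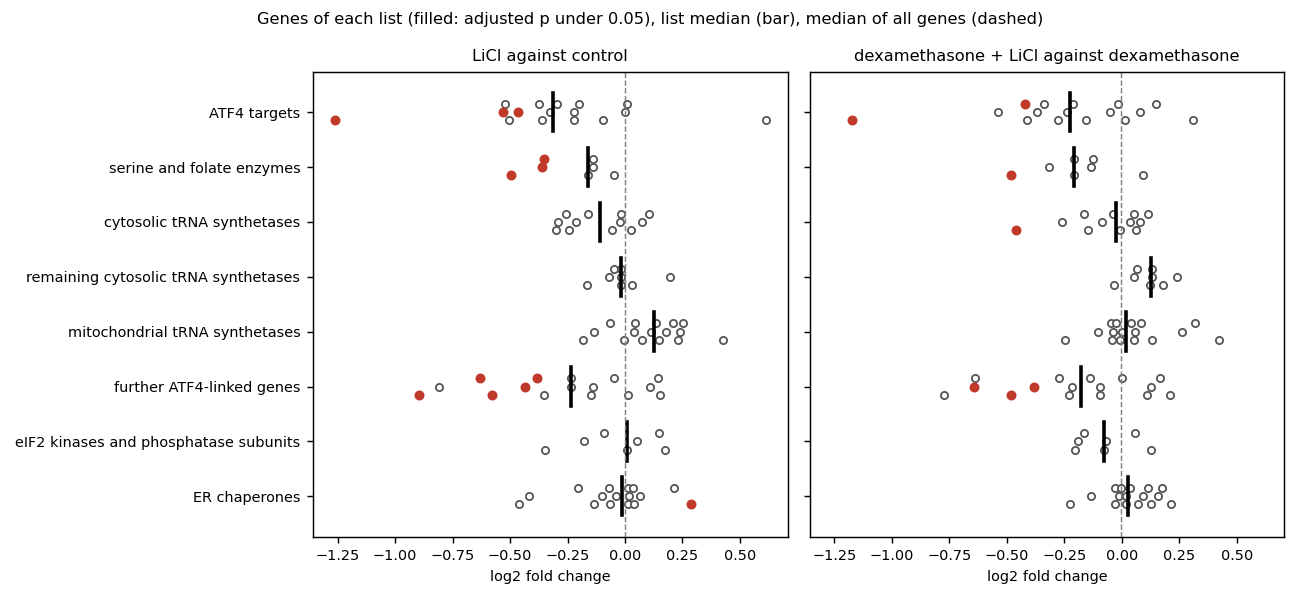
Log2 fold changes (x axis) of single genes in 8 lists (y axis), with filled points at an adjusted p under 0.05, bars for list medians and a dashed line for the median of all tested genes. In LiCl against control the medians of the ATF4 targets (-0.31), the further ATF4-linked genes (-0.24) and the serine and folate enzymes (-0.16) lie left of the dashed line, and that of the mitochondrial synthetases (0.12) lies right of it.

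Markers of other cell types moved in the same comparisons. With LiCl all 4 tested of 5 skeletal muscle markers rose, from a summed 23.3 to 24.5 CPM in control to 48.8 to 59.0 with LiCl, all 3 tested of 4 osteoclast markers fell (158 to 177 CPM against 93.6 to 126; Calcr was under 10 counts in every library), and 2 of 5 macrophage markers fell (72.0 to 108 CPM against 64.8 to 67.8). Col10a1, the collagen of hypertrophic chondrocytes, fell with LiCl (-1.02, SE 0.15, adjusted p = 0.000537) and its sum with Ihh was 2506 to 3001 CPM in control and 1306 to 1528 with LiCl. With both drugs that sum was 2447 to 2904 CPM and overlapped with control. Between both drugs and LiCl alone, Trib3, Asns and Mthfd2 differed by -0.02, -0.12 and 0.02 on the log2 scale (SE 0.30, 0.11 and 0.08). Whether these values and the marker sum are linked was not tested. Of 5 chondrocyte markers 1 fell with LiCl, Matn1 (-0.76, SE 0.16, adjusted p = 0.00587). Of 8 genes of cycling cells 1 rose with LiCl, Tyms (0.50), with sums of 740 to 934 and 898 to 982 CPM. The 4 osteoblast markers, of which 3 were tested, summed to 969 to 1148 CPM in control and 620 to 862 with LiCl, where 0 passed. Sp7 among them fell with dexamethasone (sums of 548 to 1295 CPM) and with both drugs against control (571 to 1072 CPM). With dexamethasone, which raised Ddit4 and Slc38a2, 3 of 4 endothelial markers fell (117 to 133 against 51.9 to 55.4 CPM) and 3 of 5 macrophage markers rose with 1 lower (72.0 to 108 against 153 to 175 CPM). All 3 tested osteoclast markers also fell with dexamethasone (158 to 177 against 85.1 to 99.5 CPM), and 1 of 4 muscle markers rose, Tnnt3 (0.65, SE 0.12, adjusted p = 0.00216). With LiCl added to dexamethasone the 4 muscle markers rose (30.2 to 42.0 against 87.4 to 116 CPM), and 0 of the tested osteoclast, macrophage and hypertrophic markers passed, while 1 of 5 chondrocyte markers, Matn1, fell (-0.70, SE 0.16, adjusted p = 0.0119) and 1 of 4 endothelial markers, Cdh5, rose (0.37, SE 0.10, adjusted p = 0.0298). What part these cells had in the values of the members was not tested.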

How the data were processed

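Metatarsal RNA was sequenced from 12 libraries in 4 conditions of 3 pools, with a strand-specific mRNA kit. Per the paper's methods, the authors used Subread for alignment, Picard to remove duplicates and HTSeq-count for counting by gene symbol, and merged repeat runs. What they deposited are raw counts after these steps. The notes of the submitters list a human build although the libraries are from rat, so which build and annotation lie behind the counts is not settled. The gene symbols counted are written in the rodent form, as in Trib3. Depth was 9055581 to 21953446 counts per library, and intervals or SEs cover the spread between pools. No 2 libraries of a condition agreed within sampling noise (chi-square per degree of freedom 4.07 to 21.1).

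The study's filter, 60 counts in 2 or more libraries, was applied. After TMM scaling, edgeR 4.0.16 in R 4.3.3 fitted all 12 libraries with condition as its only term, and contrasts were tested by quasi-likelihood, two-sided, with Benjamini-Hochberg adjustment over the 12602 genes, and called at an adjusted p under 0.05. Levels are CPM on TMM-scaled totals. They carry no gene length, so levels are not compared between genes. The alternatives were RLE scaling, DESeq2 1.42.0, filterByExpr, no filter, a replicate term, a fit of just the compared groups, leaving out each library, counts thinned to the smallest library and a 2-fold minimum. Python 3.11.15 with pandas 2.3.3 and matplotlib 3.10.9 made tables and plots. The fit was tested on simulated data for LiCl against control (12414 genes), where it called 70% of 1.5-fold and 98% of 2-fold rises and 90% of falls to 0.5-fold, with 11 false among 190 calls.

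The members and lists were chosen with earlier results of these data known. Values of every library are given for members that passed a comparison and for the 4 transcription factors, and the rest by range, or where the replicate term changed a call or to fill in a role. Of each further list up to 3 genes with the smallest p were eligible by rule, and others are named as chosen later. The labels number the replicates 1 to 3 without saying what a number stands for. The paper describes 3 experiments, and each pool in its ordination as bones of 1 rat and treatment group. The labels do not say which experiment or rat a number belongs to. As deviations from their condition means, same-numbered libraries had correlations of 0.131 to 0.509 in every pair of conditions except dexamethasone and control (0.0135 to 0.14). The reported calls nevertheless rest on the fit without pairing. A fit with the replicate number as a term, which pairs same-numbered libraries, was run as an alternative. Values from it are given where it changes a call. Promoter windows are from RefSeq, build GRCr8, matched by symbol or, for synthetases renamed there, by a unique synonym. Not every site found is printed.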

Additional observations from a re-analysis of the deposited data

How the results depend on the processing

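No member reversed direction in a called comparison under any alternative. Of 3933 member values under alternatives, 3841 kept their side of the threshold, 55 passed it newly and 37 no longer passed. Counts of members were equal to those reported, or within 1.5 times of them, under RLE scaling, DESeq2, filterByExpr and thinning to the smallest library.

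The replicate block, which pairs libraries of the same number, gave 1 lower in dexamethasone against control, 1 higher and 10 lower in LiCl against control, and 11 lower in dexamethasone + LiCl against control. Over all genes the block gave 895 lower, 936 higher and 1038 lower, and 1781 lower in the same order. It changed no other count of members by over 1.5 times and no call of a member was lost with it. Without a count filter the numbers were 1 lower in dexamethasone against control, 1 higher in LiCl against control and 11 lower in dexamethasone + LiCl against control. Over all 23569 genes of that fit they were 968, 909 and 1766. Fitting only the groups compared left 1 lower in dexamethasone + LiCl against dexamethasone, with 516 of all 11542 genes of that fit lower. The 2-fold minimum left 1 higher in dexamethasone against control, 1 lower in LiCl against control, 1 lower in dexamethasone + LiCl against dexamethasone, 0 higher in dexamethasone + LiCl against LiCl, and 1 higher and 1 lower in dexamethasone + LiCl against control. The causes of these changes were not tested.

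With 1 library left out, members called ranged from 2 to 2 higher and 0 to 1 lower in dexamethasone against control, 0 to 1 higher and 3 to 8 lower in LiCl against control, 1 to 8 lower in dexamethasone + LiCl against dexamethasone, 1 to 2 higher in dexamethasone + LiCl against LiCl, and 2 to 2 higher and 5 to 10 lower in dexamethasone + LiCl against control. The counts over all genes moved in these fits too. Over all genes the interaction gave 0 higher and 1 lower in edgeR, 11 and 14 in DESeq2 and 18 and 19 without a filter, 0 of them members. Atf3, at 19 to 64 counts, is the tested member with the lowest counts.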

Other observations

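Members and linked genes under the count filter had no test. Besides Aldh18a1 these were Nupr1, Gdf15, Fgf21 and Cbs of the further ATF4-linked genes and Mars2 of the mitochondrial synthetases.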
